A study of Bos taurus with 18 samples.

Results

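The hypothalamus of Angus cows was compared before and after the first calf. The comparison set 3 libraries from 30-month-old cows, which had completed their first calving, against 3 libraries from 18-month-old cows, which were sexually mature and ready for breeding. These 6 libraries were chosen by their labels out of 18. The other 12 hold the hypothalamus of 3 freshly weaned cows of 6 months and the pituitary of all 9 cows. All cows were healthy, none was in heat at slaughter, and no group carried a transgene or a drug treatment. Age, parity and body growth differ together between 18 and 30 months, so they cannot be told apart. The labels describe the tissue as the upper hypothalamus, taken whole, so each library is a bulk sample of poly(A) RNA in which fewer cells of a type and less RNA per cell cannot be told apart.

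The hypothalamus is the brain region that links the nervous system to the pituitary gland. Its neurons release gonadotropin-releasing hormone, which drives the pituitary hormones of the ovarian cycle, and dopamine, which restrains prolactin. Others make oxytocin and vasopressin, which act in birth, milk ejection and water balance. Glial cells, vessels and the cells lining the third ventricle lie among these neurons. The deposited tables identify gene models by number only, so no hormone, receptor or cell type marker could be looked up, and the tissue label could not be checked against its defining markers. Gene models are therefore given by identifier, length in bases, chromosome and values, and no role is stated.

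Read counts were deposited for 27376 gene models, of which 21377 carry a plain number and 5999 were named by the authors as new genes. Gene counts summed to between 31213928 and 36865318 in the 18-month libraries and between 30672120 and 33502113 in the 30-month libraries. After a filter on low counts, 18763 gene models were tested, among them 2775 new genes. Levels are given as CPM, counts scaled to the library total with factors from the trimmed mean of M-values (TMM). In the hypothalamus, 1 library was made per cow. The p-values of the fits rest on the spread between cows of the same age, pooled over the ages fitted.

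The libraries did not group by age. Replicate 2 of the 18-month cows and replicate 2 of the 30-month cows stood apart from the other 4, where the replicate number only names a library and pairs nothing. In a principal component analysis of the 6 libraries, the first component held 51.0% of the variance. The 18-month replicate 2 lay at -53.4 and the 30-month replicate 2 at -78.1 on it, while the other 4 libraries lay between 25.8 and 41.0. Pairs without a replicate 2 differed by a root mean square of 0.513 to 0.568 on the log2(CPM + 1) scale over 6 pairs, both within and between ages. With 1 replicate 2 in the pair the difference was 0.799 to 0.966 over 8 pairs. Distances within 18 months (0.515 to 0.865), within 30 months (0.535 to 0.934) and between the ages (0.513 to 0.966) covered nearly the same range.

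**Figure D1:**
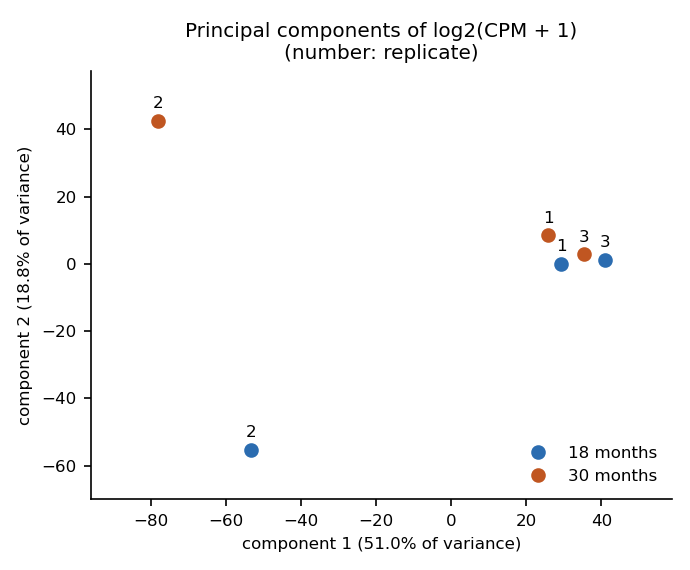
The first component (x axis, 51.0% of the variance) and the second (y axis, 18.8%) of log2(CPM + 1), with 1 point per library, coloured by age and numbered by replicate. Both replicates numbered 2 lie at the negative end of the first component, and the other 4 libraries lie together.

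Some library measures also set these libraries apart. At 18 months, 27.7%, 34.6% and 26.6% of the reads at single-nucleotide polymorphism (SNP) sites lay in 3' untranslated regions (UTRs), and at 30 months 26.8%, 29.9% and 27.1%. Intron sites held 23.7%, 15.6% and 23.5% of these reads at 18 months and 25.1%, 18.7% and 24.9% at 30 months. In each age the second value, from replicate 2, was the highest for 3' UTRs and the lowest for introns. These shares include sites called homozygous for the reference base, where the depth may not be a plain read count, as described below. They may therefore not stand for RNA composition alone. Over 11 such library measures, the two-sided exact permutation test gave p of at least 0.4 for age, where 0.1 is the smallest p that 3 libraries against 3 allow. The adjusted p was 1 for all 11. The part of these measures in the results was not tested. By correlation of log2(CPM + 1), the nearest other library was from the pituitary for 2 of the 6 libraries (30-month replicates 1 and 3) and from the hypothalamus for the other 4. The 4 libraries that were not a replicate 2 all had a higher median correlation with the pituitary libraries (0.972 to 0.977) than with the other hypothalamus libraries (0.954 to 0.961). For both replicates 2 the order was the other way, at 0.931 and 0.942 with the pituitary and 0.944 and 0.948 with the hypothalamus. The expression values thus did not separate the labelled tissues, and without gene names no marker could be read.

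The tools differed on whether any gene model passed adjustment between 30 and 18 months. The edgeR quasi-likelihood test over 18763 gene models called 0 at an adjusted p under 0.05, and the smallest adjusted p was 1. At an unadjusted p under 0.05, edgeR gave 389 gene models (2.07% of those tested), where 938 would be the number at a uniform p. Of these, 250 were higher at 30 months (1.33%) and 139 were lower (0.741%). DESeq2 called 16 gene models, or 0.0912% of the 17540 to which it gave an adjusted p, with 11 higher and 5 lower, and it gave 579 at an unadjusted p under 0.05. limma-voom called 0, with 1006 at an unadjusted p under 0.05, and limma-trend on FPKM (fragments scaled per length and library size) called 0, with 411 on log2(FPKM + 1) and 409 on log2(FPKM + 0.1). The biological coefficient of variation in the hypothalamus was 51.6%.

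Without overlap between the 3 cows of each age, 703 gene models were higher at 30 months (3.75% of those tested) and 772 were lower (4.11%). Of the 16 gene models called by DESeq2, 11 were among these and 5 were new genes. Higher here means that the lowest 30-month CPM lay above the highest 18-month CPM, with no test. For a gene model with no age difference, 1 direction or the other would arise at a rate of 0.1, since 3 libraries against 3 allow 20 splits. Together, the shares of higher and lower models were not above that rate. The gaps were narrow. The ratio of the nearest libraries of both ages had a median of 1.09 among the higher models and 1.05 among the lower ones, and it was under 1.1 for 369 and 537 of them. A gap of at least 1.5 times separated the ages for 84 higher and 45 lower gene models, and a gap of at least 2 times for 29 and 27. The median log2 fold change, 30 against 18 months, was 0.67 for the higher and -0.37 for the lower models, and 226 and 128 of them differed at least 2-fold. A level past the filter only at the age where it was high carried 88 of the higher and 61 of the lower models into the test. Below the filter, 8613 gene models were not tested, of which 2893 had no count in the hypothalamus, 112 were higher at 30 months without overlap and 78 were lower.

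Taken as a whole, the higher gene models were longer than all tested models and the lower ones shorter. Median length was 6064 bases among the higher models, 3260.5 among the lower and 4720 among all tested. Leaving out new genes gave 6617 and 3279 bases. Among models separated by at least 1.5 times, the medians were 3341.5 bases for the higher and 2055 for the lower ones. Both were below the median of all tested. Across 5 classes of length holding nearly equal numbers of gene models, from the shortest to the longest, 2.61%, 2.99%, 3.70%, 4.26% and 5.17% of the tested gene models were higher. The share of lower models went the other way, at 6.10%, 5.73%, 4.32%, 2.82% and 1.60%. This order was not kept when the 18-month replicate 2, one of the libraries that stood apart, was left out. It was kept without the 30-month replicate 2, and the cause was not tested.

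Without the 18-month replicate 2, 1999 gene models were higher at 30 months (10.7%) and 2082 were lower (11.1%), since fewer libraries overlap less often. Their median lengths were then 4534 bases for the higher and 5192 for the lower models, so the direction of the length difference turned. By class of length, the higher models made up 10.2%, 11.7%, 12.3%, 10.2% and 8.90%, and the lower ones 9.46%, 11.1%, 11%, 12.2% and 11.7%. Without the 30-month replicate 2, 1762 models were higher (9.39%) and 1931 lower (10.3%), with medians of 6603.5 and 3459 bases. Without either replicate 2, 3273 were higher (17.4%) and 3522 lower (18.8%), and the medians were 4961 and 4518 bases.

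**Figure D2:**
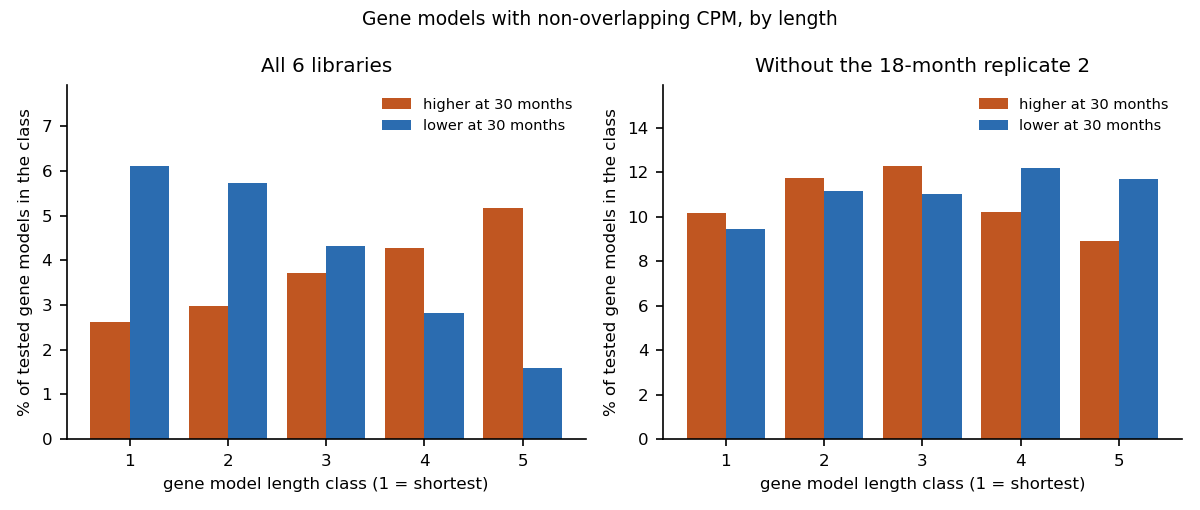
Share of the tested gene models (y axis, %) that were higher or lower at 30 months without overlap, by 1 of 5 classes of gene model length (x axis, 1 the shortest), over all 6 libraries (left) and without the 18-month replicate 2 (right). On the left the higher share goes from 2.61% to 5.17% and the lower share from 6.10% to 1.60%; on the right neither order is kept.

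New genes were more frequent among the higher gene models. They made up 162 of the 703 higher models, or 23% (95% Wilson interval 20.1% to 26.3%, counting error only), and 75 of the 772 lower models, or 9.72% (7.82% to 12%). Among all tested gene models the share was 14.8%. Seen from the other side, 5.84% of the tested new genes were higher and 2.70% were lower, against 3.38% and 4.36% of the numbered gene models. These shares include the 88 higher and 61 lower models that passed the filter only through the age where they were high. At a mean of at least 1 CPM, new genes made up 15.9% of the higher and 5.48% of the lower models. Without the 18-month replicate 2 the new-gene shares were 14.2% and 12.7%, which lie close together. Among the gene models separated by at least 1.5 times, new genes made up 46.4% of the higher and 33.3% of the lower ones.

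The higher gene models had lower levels, with a median of 9.71 CPM over the 6 libraries against 27.3 CPM for the lower models and 18.2 CPM for all tested. With the gene models split into 5 classes of level, 4.88% were higher and 2.82% lower in the lowest class, and 2.64% and 4.85% in the highest. The authors' new genes held 2.77%, 2.82% and 2.77% of all counts at 18 months and 2.31%, 3.36% and 5.30% at 30 months. The 18-month values fell between those of the 30-month libraries.

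Chromosomes were taken from the SNP sites that the authors' table places in a gene model, since the count table gives no position. Of the 18763 tested gene models, 14477 had such a site. The share of higher models ranged from 1.81% on chromosome 25 (10 of 552) to 5.96% on chromosome 28 (13 of 218). For lower models it ranged from 2.26% on chromosome 20 (5 of 221) to 6.29% on chromosome 5 (50 of 795), leaving out 18 models on unplaced sequence. Chromosome 18 had 20 higher and 50 lower among 833 tested models. On the X chromosome, 23 of 540 models were higher (4.26%) and 16 were lower (2.96%), near the shares over all models. The 4286 tested models with no site had 5.06% higher and 3.06% lower.

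The 10 higher gene models with the smallest unadjusted p were higher at 30 months by 1.90-fold (gene1266) or more, but none of them, and none of the 10 lower ones described after them, passed the adjusted threshold in edgeR (adjusted p = 1 for each). Gene1483, a model of 17035 bases on chromosome 2 with SNP sites from position 25045544 to 25066978, had 25, 23.5 and 28 CPM at 18 months and 60.3, 67.1 and 62.6 CPM at 30 months. Its 6-month cows, at 27.3, 28.7 and 40.7 CPM, lay below all 30-month cows. The log2 fold change of gene1483 was 1.31 (SE 0.194), with an unadjusted p of 9.59e-05 in edgeR and an adjusted p of 9.1e-06 in DESeq2. Its levels at both ages were tight, with means of 25.5 ± 2.3 and 63.4 ± 3.42 CPM (SD, n = 3). Neither replicate 2 stood apart in it.

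Gene16794, of 7882 bases on chromosome 14 (21933351 to 22349694), had 32.1, 22.4 and 33.7 CPM at 18 months and 57.4, 72.5 and 60.1 CPM at 30 months. The 6-month cows, at 55.2, 54.5 and 64.4 CPM, were near the 30-month level, so that the 18-month cows were the low group. Its log2 fold change was 1.11 (SE 0.2), with an adjusted p of 0.0023 in DESeq2. A similar order was seen for gene1266 (15116 bases, chromosome 2), with 7.97 to 8.41 CPM at 18 months, 13.9 to 19.1 CPM at 30 months and 12.4 to 16.9 CPM at 6 months. Gene19114, a model of 2930 bases with no SNP site, had 7.89, 7.20 and 6.85 CPM at 18 months against 21.8, 12.4 and 21 CPM at 30 months. Here the 6-month cows (6.43, 4.99 and 5.30 CPM) were below all 18-month cows.

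Gene16067 (4722 bases, chromosome 13, 61211952 to 61216632) was the most abundant of these 10, with 42.5, 44.4 and 47.6 CPM at 18 months and 96.6, 98.1 and 84.4 CPM at 30 months. Its log2 fold change was 1.05 (SE 0.248), and its adjusted p was 0.152 in DESeq2, so neither tool called it. Gene14855 (13632 bases, chromosome 12) had 16.1, 12 and 17.7 CPM against 25.4, 53.1 and 41.1 CPM, a wide spread at 30 months. In gene6490 (5195 bases, chromosome 5) the values were 5.94, 3.81 and 3.08 CPM against 9.29, 12.9 and 10.3 CPM. DESeq2 gave adjusted p of 0.0498 for gene14855 and 0.0377 for gene6490, both just under the threshold.

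The other 3 of these higher models were near 0 at 18 months. Gene15183 (2998 bases, chromosome 12, 73516174 to 73570764) was counted 0, 5 and 0 times at 18 months and 15, 189 and 130 times at 30 months. Gene16720 (3612 bases, chromosome 14, 14643456 to 14649114) had 4, 2 and 0 counts against 75, 111 and 21. Gene11544, of only 317 bases and with no SNP site, had 3, 4 and 1 counts against 15, 43 and 27. It was among the 88 higher models that passed the filter only through the age where they were high. The 30-month cows varied widely among themselves in gene16720 and gene15183, with 1 cow in each far below the other two. DESeq2 gave adjusted p of 0.00404 for gene15183, 0.00119 for gene16720 and 0.161 for gene11544.

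Among the 10 lower gene models, gene17775 (20340 bases, chromosome 15, 46902838 to 46904009) had the smallest p. It had 33.7, 20.6 and 38.6 CPM at 18 months and 9.50, 3.88 and 3.51 CPM at 30 months. For gene17775 this was a log2 fold change of -2.46 (SE 0.462), with an unadjusted p of 0.000537 and an adjusted p of 1 in edgeR and 0.000653 in DESeq2. Gene5335 (7278 bases, chromosome 4, 113087119 to 113103631) had 37.3, 35.4 and 43.2 CPM against 7.41, 6.53 and 14.3 CPM, with a log2 fold change of -2.04 (SE 0.404) and an adjusted p of 0.00382 in DESeq2. The 6-month cows of gene17775, at 20.1, 10.6 and 15 CPM, lay between both other ages. Those of gene5335, at 28.7, 11.3 and 21.7 CPM, lay below all 18-month cows and overlapped the 30-month cows.

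Bos_taurus_newGene_23927, a new gene of 20436 bases with no SNP site, had 9.41, 27.1 and 8.96 CPM at 18 months and 0.0893, 1.11 and 1.31 CPM at 30 months. Its 6-month cows were far apart, at 105, 17.1 and 48.6 CPM, and lay above all 30-month cows. The mean of Bos_taurus_newGene_23927 was 15.1 ± 10.3 CPM at 18 months and 0.839 ± 0.656 CPM at 30 months (SD, n = 3), and the adjusted p was 0.0023 in DESeq2 and 1 in edgeR. Gene27949 (6784 bases, chromosome 25, 19886148 to 19900196) had 13.8, 10.2 and 15.1 CPM against 5.09, 2.77 and 4.63 CPM. Gene14116 (11977 bases, chromosome 11) had 9.09, 5.35 and 12.6 CPM against 1.67, 1.54 and 2.82 CPM. For gene27949 and gene14116 the 6-month cows were also low, at 2.25 to 4.41 and 0.957 to 3.14 CPM, so that the 18-month cows were the high group.

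Gene21780 (1387 bases, chromosome 18, 57827047 to 57828210) was counted 19, 13 and 19 times at 18 months and 0 times in each 30-month library. It was among the 61 lower models that passed the filter only through the age where they were high. Against a floor of 3 counts per library, its mean was at least 5.39-fold lower at 30 months. Gene21780 was 1 of 3 lower gene models listed at 0 in all 30-month libraries. The other two were gene13530, counted 66, 5 and 60 times at 18 months (at least 13.8-fold lower), and Bos_taurus_newGene_67613, counted 4, 4 and 17 times (at least 2.78-fold lower). At 0 in all 18-month libraries were Bos_taurus_newGene_56832, counted 2, 27 and 13 times at 30 months (at least 4.92-fold higher), and Bos_taurus_newGene_58542, counted 13, 13 and 3 times (at least 3.32-fold higher). All these bounds are for the mean of an age. Neither the 30-month replicate 1 of Bos_taurus_newGene_56832 (2 counts) nor the replicate 3 of Bos_taurus_newGene_58542 (3 counts) was above the floor of 3 counts. The 4 gene models here other than gene21780 were chosen for their 0 values, after those were seen. With the zero models set at these bounds, the median log2 fold changes of the higher and lower models stayed 0.67 and -0.37. Each bound lies beyond the median of its set, so the medians could not move.

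The remaining 4 of the 10 lower models had the smallest fold changes among them, with log2 values from -1.45 for gene28115 to -0.65 for gene23605. Gene28115 (4677 bases, chromosome 25, 27382288 to 27387721) had 374, 310 and 250 CPM at 18 months and 105, 78.1 and 159 CPM at 30 months. Gene6803 (3319 bases, chromosome 5, 103530815 to 103547886) had 91.5, 87.4 and 99.1 CPM against 58.5, 38.2 and 55.7 CPM. At 6 months gene28115 ranged from 124 to 283 CPM, across both other ages, and gene6803 from 45.6 to 68.8 CPM, below all 18-month cows. Gene23605 (8820 bases, chromosome 19) had 45.6, 47.7 and 49.2 CPM against 29.7, 35.2 and 26.2 CPM. Gene28710 (6806 bases, chromosome 26) had 33.4, 32.9 and 31.6 CPM against 15.1, 22.9 and 19.7 CPM. The 18-month cows lay close together in gene23605 and gene28710, and the 30-month cows spread more widely. None of these 4 was called by DESeq2, whose adjusted p ran from 0.161 for gene23605 to 0.316 for gene6803.

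**Figure D3:**
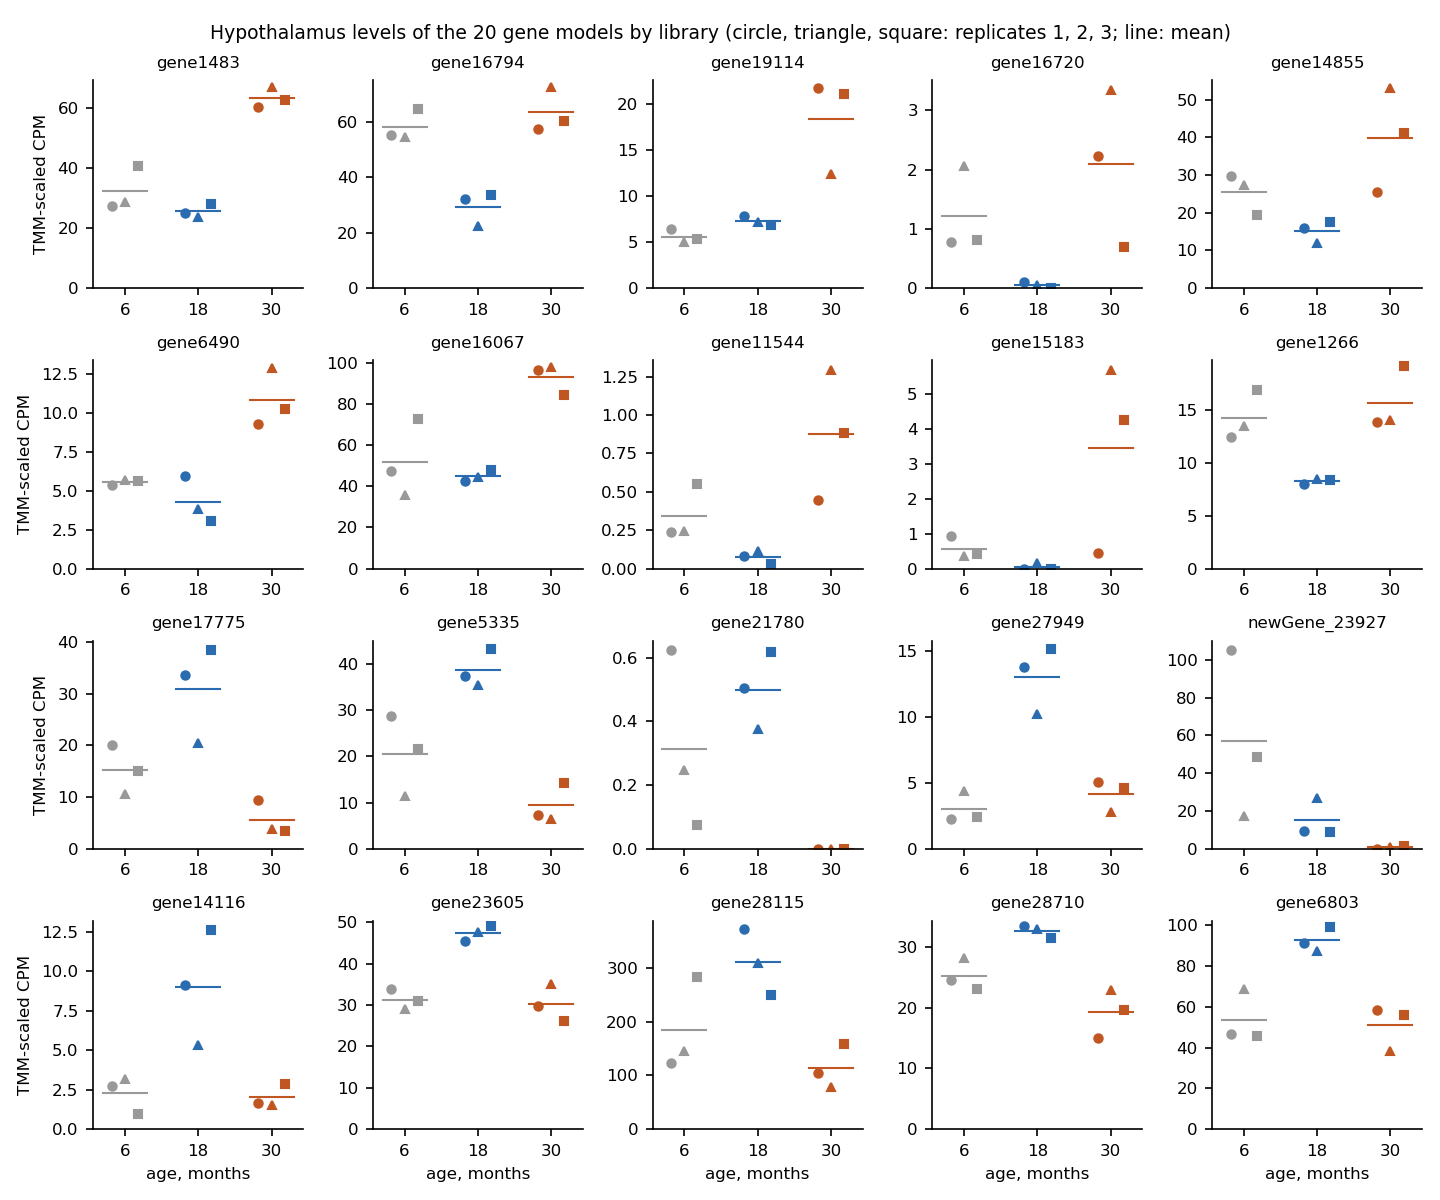
TMM-scaled CPM (y axis, a separate scale in each panel) of the 10 higher and 10 lower gene models with the smallest p, against age in months (x axis), with 1 point per hypothalamus library and a line at the mean of each age. By the choice of models the 30-month and 18-month points do not overlap; the 6-month points of gene16794 lie near the 30-month level and those of gene27949 at the low 30-month level.

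The most abundant of the non-overlapping gene models differed little. Gene25075 (3170 bases, chromosome 21), which ranked 6th by level among the tested models, had a mean of 2951 ± 75.3 CPM at 18 months and 2490 ± 258 CPM at 30 months (SD, n = 3), with a log2 fold change of -0.25. For gene13726, gene15937 and gene21439, the next lower models by level, it was -0.34, -0.31 and -0.25. On the higher side gene19129 (15002 bases, chromosome 16) had 486, 456 and 479 CPM at 18 months and 556, 949 and 506 CPM at 30 months. Its 30-month replicate 2 was far above the other cows of that age. The log2 fold change was 0.50 for gene19129, 0.31 for gene4955, 0.41 for gene17369 and 0.42 for gene6924. All 8 had an unadjusted p of at least 0.0809 in edgeR and an adjusted p of 1 in edgeR and in DESeq2.

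The deposited FPKM values, which are scaled per length and come from the same libraries, separated the ages in the same direction for 471 of the 703 higher gene models (67.0%) and 564 of the 772 lower ones (73.1%), and in the opposite direction for 0. Over all tested gene models, FPKM was higher at 30 months without overlap for 3.51% and lower for 4.35%. Across the 18763 gene models, the log2 fold changes of counts and FPKM had a Pearson r of 0.768 and a Spearman rho of 0.875, as a description over gene models that share their libraries. Of the 20 gene models with the smallest p, 18 were also separated by FPKM. The exceptions were gene6490, at 2.82, 1.73 and 1.19 FPKM against 2.13, 3.74 and 1.94 FPKM, and gene17775. Gene17775 had 6.22, 8.43 and 3.23 FPKM at 18 months and 8.57, 0.157 and 0.138 FPKM at 30 months, so that the 30-month replicate 1 was the highest of the 6 libraries on this scale and the lowest 2 were the other 30-month cows.

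The table of 992284 SNP sites gives a second reading of the same libraries, the depth at each site, and 734767 of the sites lie in gene models. Where a library was called homozygous for the reference base, depths were heaped at 20 to 22, with 76449 calls there against 11612 at 17 to 19, a ratio of 6.58. For other genotypes the ratio was 0.798. Depth at homozygous reference calls may therefore not be a plain read count, and a set of 11441 exonic sites (coding or UTR) with another genotype in all 6 libraries was used beside all sites. This set was chosen after the heap was seen. It covered 4688 gene models, of which 4277 were tested, and the edgeR quasi-likelihood test called 0 of them at an adjusted p under 0.05 and gave 70 (1.64%) at an unadjusted p under 0.05. Reads at all sites, over 13372 gene models, gave 0 calls in edgeR and 318 gene models (2.38%) at an unadjusted p under 0.05.

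The site reads lay on the same side as the counts in most of these gene models, with smaller median differences. The models were chosen by their counts, so counts and site reads are not compared on equal terms. Over all 4244 gene models tested by both, reads at the exonic sites that were not homozygous reference were higher at 30 months in 50.7%. Among the 145 higher gene models with such sites, 123 (84.8%) had more site reads, scaled to library size, at 30 months, with a median log2 fold change of 0.28 for site reads and 0.41 for counts. Site reads separated the ages in the same direction without overlap in 21 of them (14.5%, against 3.11% of all 4244 gene models tested by both) and in the opposite direction in 0. For the 164 lower gene models, 129 (78.7%) had fewer site reads, with medians of -0.22 for site reads and -0.31 for counts. In 32 of the 164 (19.5%, against 3.25%) the site reads separated the ages in the same direction, and in 0 in the opposite one. With a gap of at least 1.5 times by counts, 4 higher and 1 lower model had such sites, and site reads separated the ages in 0. The lower model went the other way, with a log2 fold change of 0.55 for site reads and -2.55 for counts. Since counts and site reads come from the same sequenced libraries, they share the differences between cows and are not independent. With all sites, 96 of 420 higher and 102 of 584 lower models were separated in the same direction (3.69% of 12925 gene models each way), and 6 and 12 in the opposite one.

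**Figure D4:**
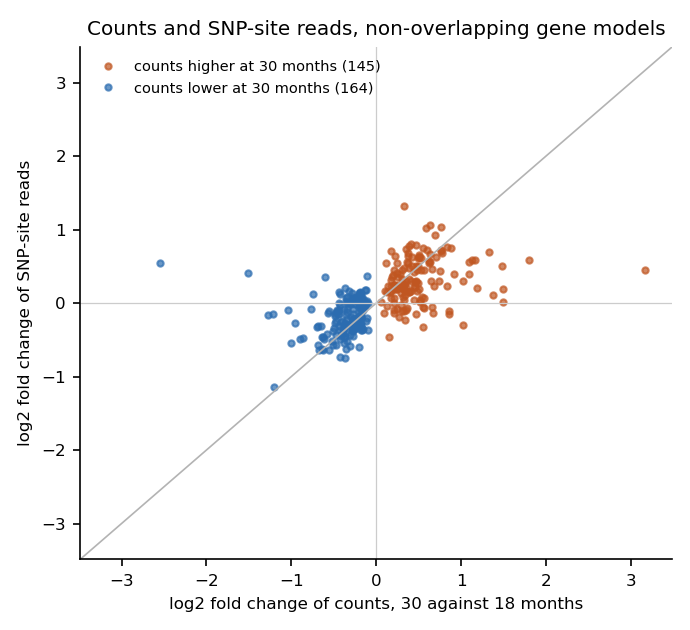
Log2 fold change of reads at exonic SNP sites that were not homozygous reference (y axis) against that of gene counts (x axis), 30 against 18 months, for the 145 higher and 164 lower non-overlapping gene models with such sites; the diagonal marks equal change. Most points lie on the same side of 0 on both axes, and the median site change was smaller than the median count change in each set.

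Among the 20 gene models with the smallest p, 16 had exonic SNP sites, but only gene6803, gene28710 and gene27949 had sites that were not homozygous reference in all 6 libraries. At 3 such sites gene6803 had 266, 223 and 265 RPM (site reads scaled like CPM) at 18 months and 205, 119 and 217 RPM at 30 months, without overlap. At all 9 of its exonic sites the values were 98.3, 106 and 83.9 RPM against 79.5, 60.7 and 90.6 RPM, with overlap. The values at all 9 sites were scaled to the reads at all sites in gene models. Those at the 3 sites were scaled to the reads at exonic sites that were not homozygous reference, so the scales differ. Gene28710 overlapped at its 2 such sites, with 73.9, 112 and 68.6 RPM against 90.7, 66.0 and 84.4 RPM. Gene27949 overlapped at its 1 such site, with 13, 4 and 8 reads against 4, 5 and 9.

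For the other 13 of these models, only depths that include homozygous reference calls can be given, so each carries the doubt stated for such calls and none is set against its counts as a test. At all exonic sites, depth scaled to library size separated the ages in the direction of the counts in 2 of the 16, gene21780 and gene23605. The gaps were narrow. The nearest libraries of both ages had 17.05 and 16.91 RPM in gene23605 and 2.25 and 2.09 RPM in gene21780. The share over all gene models is not given for this depth. Gene1483 had a depth of 112, 48 and 79 at its 4 coding and 2 3' UTR sites at 18 months and 90, 91 and 77 at 30 months, with overlap, and 34.4% of that depth lay at homozygous reference calls. Gene16794 had 235, 178 and 274 at 9 exonic sites against 170, 266 and 171, with overlap, and 51.7% at such calls. In gene28115 the depth at 2 sites in the 3' UTR was 102, 126 and 152 at 18 months and 96, 248 and 244 at 30 months, 100% of it at such calls.

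Gene15183 and gene16720, near 0 by counts at 18 months, also had no exonic site depth there. A depth of 0 here can stand for sites with no value given in that library. Gene15183 had a depth of 0 in each 18-month library at 11 coding sites and 0, 23 and 10 at 30 months, of which 0, 16 and 10 lay at calls other than homozygous reference. Gene16720 had 0 in each 18-month library at 4 exonic sites and 9, 11 and 0 at 30 months. Gene17775 was lower but not near 0 at 30 months, with 319, 129 and 107 counts. Its coding site and its 3' UTR site held 85, 110 and 34 at 18 months, all at calls other than homozygous reference. At 30 months these sites held 33, 0 and 0. The 33 of its 30-month replicate 1 lay at homozygous reference calls, and by FPKM too this library did not lie with the other 30-month cows.

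Gene21780 was listed at 0 counts in the 30-month libraries, and its 11 exonic sites had a depth of 7, 7 and 11 there against 21, 44 and 12 at 18 months. Of the 30-month depth, 7, 5 and 8 lay at homozygous reference calls and 0, 2 and 3 at other calls. Whether the depth at homozygous reference calls stands for reads of this gene model was not tested. Bos_taurus_newGene_23927, gene19114 and gene11544 had no SNP site, and gene14116 had intron sites only, so no exonic site depth could be set beside their counts.

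**Figure D5:**
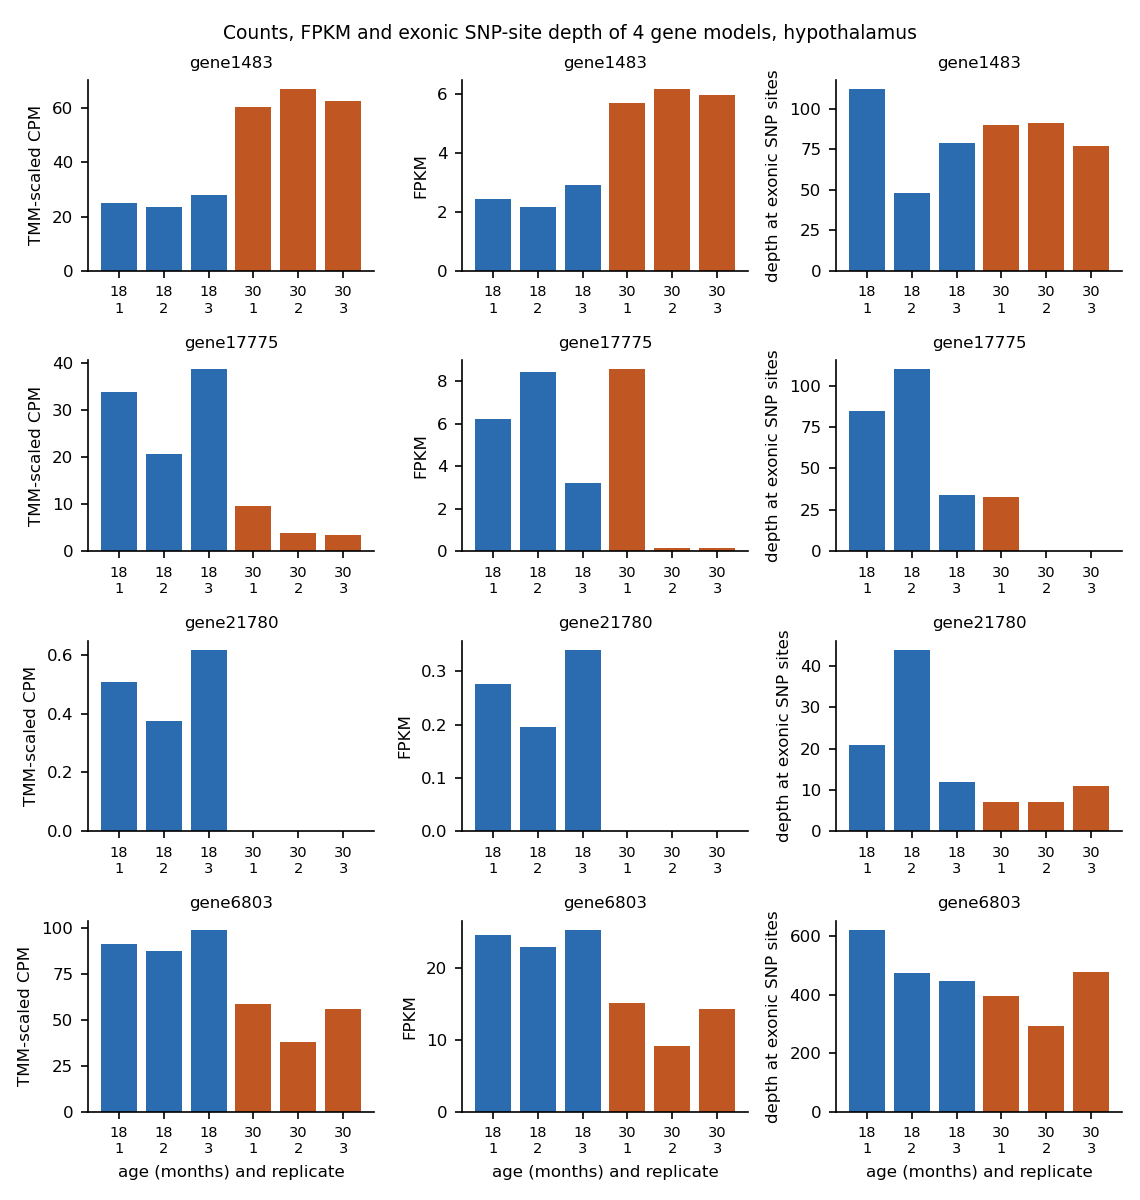
TMM-scaled CPM (left), FPKM (middle) and depth at exonic SNP sites, homozygous reference calls included (right), of gene1483, gene17775, gene21780 and gene6803, with 1 bar per library labelled by age in months and replicate. Gene1483 separates the ages by CPM and FPKM but overlaps in site depth, and gene21780 has a site depth of 7, 7 and 11 at 30 months beside counts of 0.

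The pituitary libraries of the same ages did not mirror the hypothalamus beyond the background for the higher gene models. Of 678 higher models tested in both tissues, 38 (5.60%) were also higher at 30 months without overlap in the pituitary, against 5.64% of all 18158 gene models tested in both. In the opposite direction there were 27 (3.98%, against 5.31%). Among 765 lower models, 53 (6.93%) were also lower in the pituitary, against 5.31%, and 22 (2.88%) were higher, against 5.64%. The labels do not say which pituitary came from which cow. No effect can be called particular to the hypothalamus, since the edgeR quasi-likelihood test of the difference between tissues called 0 of 19707 gene models, with 875 (4.44%) at an unadjusted p under 0.05, and DESeq2 called 29. Leaving out the 30-month hypothalamus replicate 3 or the 18-month pituitary replicate 3 gave 1 call each in edgeR.

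Of the 20 gene models with the smallest p, 5 were separated in the same direction in the pituitary. Gene17775 had 15.6, 32.2 and 32.2 CPM there at 18 months and 10.7, 0.669 and 1.15 CPM at 30 months, with 1 of the 30-month libraries far above the other two. Gene15183 had 0.134, 0 and 0 CPM against 0.383, 2.19 and 4.49 CPM. Gene16067 had 90.6, 92.1 and 51.5 CPM against 113, 121 and 102 CPM. The other two were gene1266, with 5.15 to 8.38 CPM against 8.98 to 11.2 CPM, and gene23605, with 38.6 to 109 CPM against 25.5 to 35.7 CPM.

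Gene28115 and gene11544 went the opposite way in the pituitary. Gene28115 had 141, 66.5 and 102 CPM there at 18 months and 161, 147 and 146 CPM at 30 months, while the hypothalamus was lower at 30 months. The difference between tissues in gene28115 was -1.99 on the log2 scale, with an unadjusted p of 0.000822 and an adjusted p of 0.942 in edgeR. Gene1483, the gene model with the smallest p in the hypothalamus, had 22.4, 55 and 28.1 CPM in the pituitary at 18 months and 63.6, 25.4 and 70.1 CPM at 30 months. In each age the pituitary replicate 2 of gene1483 lay on the side of the other age, so the ages overlapped.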

How the data were processed

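Reads were counted per gene model by the authors, with no normalization, in the deposited count table, and a second deposited table holds FPKM, which the authors scaled by gene model length and library size, per the file headers. A deposited table of SNP sites gives a genotype and a depth at each site for each library. The depth was used as a read count, which may not hold at homozygous reference calls. HISAT2, StringTie, GATK and DESeq are named in the submitters' processing notes with no role or version. The genome build and annotation are not given in the sources used here, and positions are printed as the table gives them, on chromosomes that carry the names of NCBI's UMD assembly. Of 27376 identifiers, 0 were found in the RefSeq table (an assembly with other names), so the gene lists and cell type markers of the plan were not run and no sequence is shown.

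Counts of the 9 hypothalamus libraries were filtered with filterByExpr, scaled by TMM and fitted by age with edgeR 4.0.16 in R 4.3.3 (quasi-likelihood test with 6 residual degrees of freedom, Benjamini-Hochberg adjustment, threshold 0.05). DESeq2 1.42.0 and limma 3.58.1 were alternatives, along with other scalings, filters and left-out libraries. SNP-site reads were summed per gene model and fitted the same way. The fit was tested on simulated data. It recovered 2 of 50 changes of 2-fold, 21 of 50 of 4-fold, 41 of 50 of 8-fold and 39 of 50 of 16-fold. A result of 0 calls therefore does not show that changes of 2-fold or 4-fold were absent. Changes were set only in gene models with a mean above 1 CPM. Each gene model was drawn on its own, so the simulated libraries lacked the shared difference of both replicates 2 from the others. Named were, among non-overlapping gene models, the 10 higher and 10 lower with the smallest p and the 4 higher and 4 lower with the highest level. Gene models and lists were chosen with earlier results of these data known. The table of insertions and deletions was not used. Gene models with similar copies or on opposite strands may share reads, since the counting is not given in the sources used here.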

Additional observations from a re-analysis of the deposited data

How the results depend on the processing

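The count of calls at 0 moved to 16 with DESeq2, and stayed 0 in edgeR and limma under 19 other settings. Gene models at an unadjusted p under 0.05 numbered 389 and moved to 1006 with limma-voom with quality weights. For SNP-site reads they numbered 318 and were 70 at sites that were not homozygous reference, where fewer gene models were tested. The difference between tissues gave 0 calls, 29 with DESeq2 and 0 to 1 with 1 library left out.

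Non-overlapping gene models numbered 703 higher and 772 lower. A gap of at least 1.5 times left 84 and 45. With 1 library left out they numbered 1264 to 1999 and 1305 to 2082, and without either replicate 2 (chosen after seeing the data) 3273 and 3522, since fewer libraries overlap less often. The median length of higher models (6064 bases) was 5063 with no filter, 7285 at a mean of at least 1 CPM, 3341.5 at the gap of 1.5, 4534 to 6603.5 with 1 library left out and 4961 without either replicate 2. That of lower models (3260.5) was 3486 by FPKM, 3057, 3444.5, 2055, 3082 to 5192 and 4518 in the same settings. The new-gene share of higher models (23%) was 15.9% at a mean of at least 1 CPM, 46.4% at the gap, 14.2% to 23.4% with 1 library left out and 16.3% without either replicate 2. The share among lower models (9.72%) was 12.9% with no filter, 5.48%, 33.3%, 9.53% to 12.7% and 12.1%.

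The number of gene models with a count was 38 lower at 30 months on average (-38) and 2 higher among models past the filter. The number of SNP sites read was 14644 higher and changed sign at a depth of at least 10 (-1919). Two-sided exact permutation p for these was at least 0.8. For the 28 named gene models, 556 alternative fits with an adjusted p gave 545 on the same side of the threshold, 11 newly called (each by DESeq2) and 0 reversed (DESeq2 gave no adjusted p for gene21780). Causes of these shifts were not tested, apart from the smaller numbers of libraries or gene models named. No paired analysis was possible because the labels give no replicate numbers. With 3 cows an age, the exact permutation test of a single value cannot go below 0.1, and gene models at few counts, such as gene11544, rest on as little as 1 read in a library.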
